A study of Homo sapiens with 15 samples.

Results

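The HLA class II pathway was followed here through 10 genes: the chains HLA-DRA, HLA-DRB1, HLA-DPA1, HLA-DPB1, HLA-DQA1 and HLA-DQB1, the loading factor subunits HLA-DMA and HLA-DMB, the invariant chain CD74 and the transactivator CIITA. They were chosen by name, with earlier results of these data known, as genes to which probes of the deposited table are annotated. They were measured by 33 probes among 18334 genes in all. The cells were K562, an established human leukaemia line with erythroid and myeloid features. Cultures received valproic acid at 1 mM, a branched fatty acid used against epilepsy that blocks histone deacetylases, or no drug, and were sampled at 2, 6, 10, 48 and 72 h. RNA of treated and untreated cells of the same time was hybridised to one 2-colour array, with 3 arrays per time from separate thawings of the line. The dyes were exchanged in replicate 3, where treated RNA carried Cy3 in place of Cy5.

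Class II molecules are dimers of an alpha and a beta chain (DR, DP or DQ) that present peptides from the endosomal route to CD4+ T cells. CD74 fills the groove of the newly made dimer, proteases trim CD74 down to a short peptide, and HLA-DM, the dimer of HLA-DMA and HLA-DMB, exchanges that peptide for antigen. CIITA does not bind DNA itself. It is recruited to class II promoters by RFX, CREB and NF-Y, which sit on the W/S, X and Y boxes, and it is made constitutively in professional antigen-presenting cells and after interferon gamma in many others.

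Values are log2 ratios of treated over untreated RNA, so 0 is no difference and 1 is a doubling. No source used here names the base of the logarithm; base 2 was assumed, and every fold rests on it. Each gene was fitted with limma over all 15 arrays with 5 time means and a dye term, and it was called at a Benjamini-Hochberg adjusted p under 0.05 over 18334 genes. Errors after ± are SEs of that fit (3 arrays per time). Array medians lay between −0.00522 and 0.0169. No spot intensities were used here, which means that no level is given and that probes near background were kept; a ratio near 0 can therefore belong to a steady transcript or to one that the probe did not detect.

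Of the 10 genes, 0 were called higher at 2 h, where limma called 4.82% of all genes higher and 0 of the 10 reached an unadjusted p under 0.05. At 6 h 1 was called higher, against 19% of all genes, and at 10 h 1, against 18.1%. At 48 h 3 were called higher, against 23.3%, and at 72 h 4, against 22.1%. The members' counts at 48 and 72 h thus lie within a few genes of what those shares give for 10 genes. By limma 0 members were called lower at any time, and 0 reached an unadjusted p under 0.05 in that direction; of all genes, 1.53% were called lower at 2 h, 9.66% at 6 h, 11.6% at 10 h, 14.6% at 48 h and 13.6% at 72 h. The median log2 ratio of the members was 0.02 at 48 h and 0.04 at 72 h, beside 0.0056 and 0.013 for all genes.

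The genes called were the DP chains, HLA-DMA and, at 72 h, HLA-DRB1. The values on every array are shown in the plot of the members by time.

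**Figure D1:**
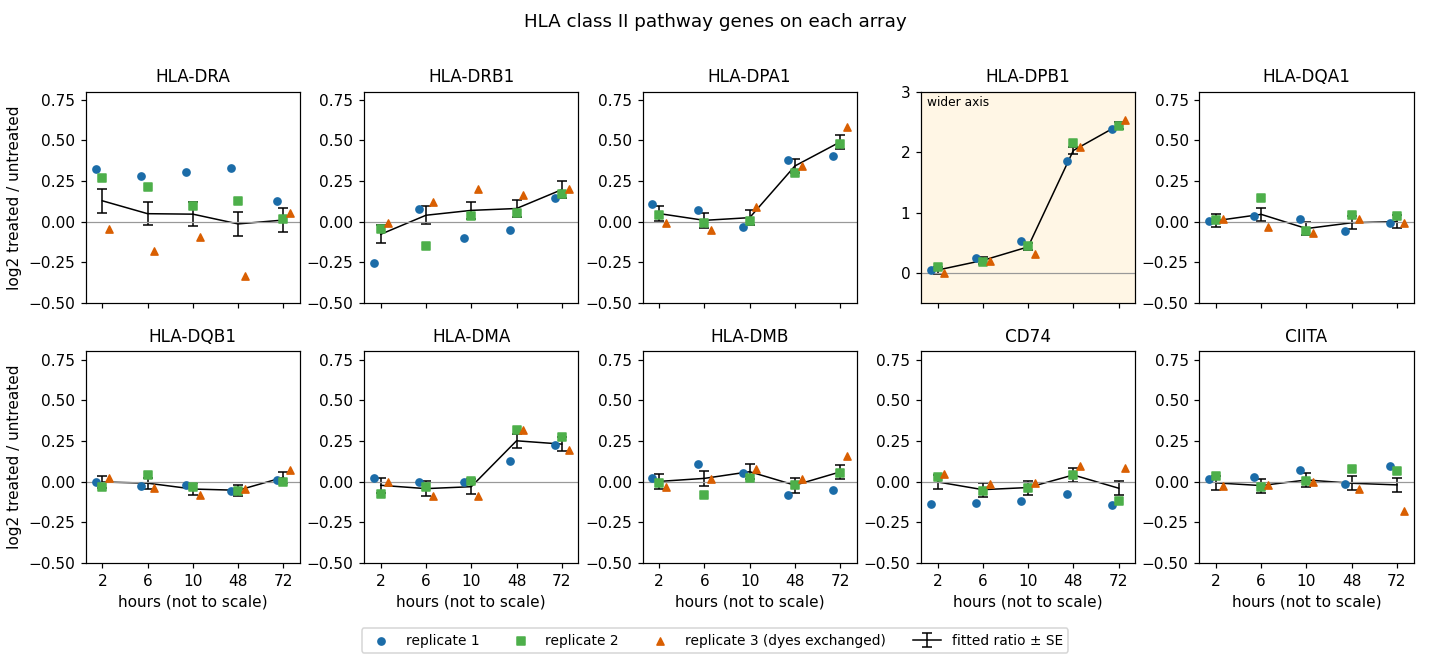
Log2 ratio of treated over untreated RNA (y axis) on each array for the 10 genes at 2, 6, 10, 48 and 72 h (x axis, not to scale); points are the 3 replicates, and the line joins fitted ratios ± SE. HLA-DPB1, on a wider y axis, reached 2.38 to 2.52 at 72 h, while the 72 h arrays of HLA-DRA, HLA-DQA1, HLA-DQB1, HLA-DMB, CD74 and CIITA stayed within 0.18 of 0.

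HLA-DPB1 encodes the beta chain of the DP dimer and had the largest ratios of the 10 genes at 48 and 72 h. Its promoter is printed with 3 short motifs in capitals where they occur on either strand, none overlapping another; a motif on the other strand appears as its reverse complement. They are CCAAT, the core of the NF-Y site in the Y box, then GCAAC, found in many X1 boxes, and TGACG, the core of the CREB site. The sequence is RefSeq's, build GRCh38.p14, plus strand, chr6:33075740-33076039, from 250 bases before to 50 bases after the annotated start.
HLA-DPB1: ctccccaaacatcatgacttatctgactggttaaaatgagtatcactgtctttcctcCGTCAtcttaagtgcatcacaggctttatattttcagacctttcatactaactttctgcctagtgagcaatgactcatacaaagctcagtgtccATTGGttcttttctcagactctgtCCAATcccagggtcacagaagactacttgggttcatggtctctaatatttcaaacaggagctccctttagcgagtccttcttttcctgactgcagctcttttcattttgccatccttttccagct
It held CCAAT in reverse at −99 and as written at −75 from the start, 24 bases apart, and TGACG in reverse at −193.

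At 2 h HLA-DPB1 stood at 0.06, 0.10 and −0.00 on the 3 arrays, and at 6 h at 0.24, 0.18 and 0.21. At 10 h its arrays read 0.53, 0.45 and 0.31, at 48 h 1.86, 2.15 and 2.08, and at 72 h 2.38, 2.44 and 2.52. The arrays of each time from 6 h on lay wholly above those of the time before. The fitted ratio was 0.05 ± 0.06 at 2 h, 0.21 ± 0.06 at 6 h (limma adjusted p = 0.0158) and 0.43 ± 0.06 at 10 h (limma adjusted p = 0.000113). It was 2.03 ± 0.06 at 48 h, a 4.07-fold excess in treated cells (95% interval 3.74 to 4.44, limma adjusted p = 2.18e-10). At 72 h it was 2.45 ± 0.06, or 5.45-fold (limma adjusted p = 5.49e-11), with a 95% interval of 2.32 to 2.57 on the log2 scale.

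Most of the rise of HLA-DPB1 lay between 10 and 48 h, an interval with no array inside it. The log2 ratio at 10 h was 17.6% of that at 72 h, and the ratio at 48 h was 82.9%. The step from 10 to 48 h was 1.60 ± 0.08 (limma adjusted p = 7.73e-07), and 3 of the 10 members were called higher in that contrast, against 3.57% of all genes. The further 0.42 ± 0.08 from 48 to 72 h had an unadjusted p of 0.000194 and an adjusted p of 0.162; in that contrast limma called 0 of 18334 genes, while 2377 had an unadjusted p under 0.05. By size of ratio HLA-DPB1 ranked 5577 of 18334 genes at 2 h, 1371 at 10 h, 83 at 48 h and 34 at 72 h. Its 2 probes gave 2.25 and 1.81 at 48 h, and 2.63 and 2.26 at 72 h. Neither probe passed alone at 6 h (adjusted p = 0.0761 and 0.0993 in a limma fit over 31332 probes, which called 16.7% of them higher), and the 6 h call of the gene was kept in 21 of 27 other settings.

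HLA-DPA1 encodes the alpha chain that pairs with HLA-DPB1. Its arrays read 0.11, 0.04 and −0.01 at 2 h, and 0.07, −0.01 and −0.05 at 6 h. They read −0.03, 0.01 and 0.09 at 10 h. The 48 h arrays gave 0.38, 0.30 and 0.35, and the 72 h arrays 0.41, 0.48 and 0.58. The 6 late arrays all lay above the 9 earlier ones. The fitted ratio was 0.34 ± 0.04 at 48 h (limma adjusted p = 5.40e-05) and 0.49 ± 0.04 at 72 h, a 1.41-fold excess (limma adjusted p = 2.77e-06).

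The value of HLA-DPA1 depends on the probe. Its 2 probes are annotated to the same mRNA, and one of them carried the whole rise: that probe read 0.64, 0.72 and 0.67 at 48 h and 0.77, 0.80 and 1.15 at 72 h, with fits of 0.68 (adjusted p = 4.54e-06) and 0.91 (adjusted p = 3.54e-07) in the limma fit over probes. The other gave 0.01 at 48 h (adjusted p = 0.946) and 0.07 at 72 h (adjusted p = 0.408). In that fit 21.4% of probes were called higher at 48 h and 19.8% at 72 h. The means of 0.34 and 0.49 thus lie between probes that disagree.

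HLA-DMA, a subunit of the HLA-DM exchange factor, was called at 48 and 72 h with a smaller ratio. Its promoter is shown for the arrangement of CCAAT, which differs from that of HLA-DPB1 (RefSeq, GRCh38.p14, minus strand, chr6:32953048-32953347, capitals as above).
HLA-DMA: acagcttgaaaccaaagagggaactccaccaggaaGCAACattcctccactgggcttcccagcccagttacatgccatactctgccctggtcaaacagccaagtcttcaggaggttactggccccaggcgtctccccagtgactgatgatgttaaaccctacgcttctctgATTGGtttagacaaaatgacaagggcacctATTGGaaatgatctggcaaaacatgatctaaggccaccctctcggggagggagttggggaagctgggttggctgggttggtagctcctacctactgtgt
CCAAT occurred in reverse at −79 and at −49, and GCAAC occurred at −215.

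On single arrays HLA-DMA read 0.02, −0.08 and −0.00 at 2 h, and −0.00, −0.03 and −0.09 at 6 h. The 10 h arrays gave −0.00, 0.00 and −0.09. At 48 h the values were 0.13, 0.32 and 0.32, and the 72 h arrays gave 0.23, 0.28 and 0.20. All 6 late arrays were above the 9 earlier ones, and the 48 and 72 h arrays overlapped. The fitted ratios were 0.25 ± 0.04 at 48 h (limma adjusted p = 0.000659) and 0.23 ± 0.04 at 72 h, a 1.17-fold excess (limma adjusted p = 0.00129). Of its 2 probes, both were called at 48 h and 1 at 72 h (0.31, adjusted p = 0.000547, against 0.15, adjusted p = 0.0803, for the other). HLA-DMB, the other subunit of HLA-DM, was not called at any time: its 72 h arrays read −0.05, 0.05 and 0.16, and its fit was 0.06 ± 0.04.

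HLA-DRB1, the beta chain of the DR dimer, was the fourth gene called at 72 h. Its arrays read 0.15, 0.17 and 0.20 there, with a fit of 0.20 ± 0.05, a 1.15-fold excess (limma adjusted p = 0.0115). At 48 h they read −0.05, 0.05 and 0.17, overlapping the 10 h arrays at −0.10, 0.03 and 0.20. Of its 10 probes 8 passed alone at 72 h in the limma fit over probes, which called 19.8% of all probes higher. All 10 are annotated to the same mRNA and were read on the same arrays, so they are not independent measurements. Within an array their SD had a median of 0.049, and whether their sequences differ was not checked here. The call of HLA-DRB1 was lost in 7 of 27 other settings, where the adjusted p reached 0.361. One of its probes read −0.96 on 2 h replicate 1, where the next lowest read −0.24.

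HLA-DRA, the nearly monomorphic alpha chain of DR, was measured by 1 probe and was not called. It read 0.33, 0.27 and −0.04 at 2 h, and 0.28, 0.21 and −0.18 at 6 h. The 10 h arrays gave 0.31, 0.10 and −0.10. At 48 h it read 0.33, 0.13 and −0.33, and at 72 h 0.13, 0.02 and 0.05. Replicates 1 and 2 were above 0 at every time, and replicate 3, the one with exchanged dyes, was below 0 at 4 of 5 times. The dye term of HLA-DRA was 0.16 ± 0.03 (limma adjusted p = 0.00537), and the fitted ratios ran from −0.01 at 48 h to 0.13 at 2 h. Without replicate 3 the fit has no opposite dye orientation, and HLA-DRA then stood at 0.25 at 6 h (limma adjusted p = 0.0397) and 0.23 at 48 h (limma adjusted p = 0.0421). Dye and thawing cannot be told apart, because only the third thawing carried the exchanged dyes.

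HLA-DQA1 and HLA-DQB1, the chains of DQ, stayed close to 0. HLA-DQA1 read −0.00, 0.03 and −0.01 at 72 h, and HLA-DQB1 read 0.01, −0.00 and 0.07. Their fitted ratios over the 5 times lay between −0.05 and 0.05. The promoter of HLA-DQB1 is shown because it holds the CCAAT pair of HLA-DPB1 at the same spacing while the gene itself was not called (RefSeq, GRCh38.p14, minus strand, chr6:32666608-32666907, capitals as above).
HLA-DQB1: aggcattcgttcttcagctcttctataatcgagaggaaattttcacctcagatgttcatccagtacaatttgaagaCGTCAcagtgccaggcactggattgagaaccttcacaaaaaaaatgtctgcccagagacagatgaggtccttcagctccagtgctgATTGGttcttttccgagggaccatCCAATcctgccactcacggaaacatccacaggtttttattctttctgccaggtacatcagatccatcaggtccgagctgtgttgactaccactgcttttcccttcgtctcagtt
Here CCAAT occurred in reverse at −88 and as written at −64, again 24 bases apart. A reversed CCAAT followed at that distance by a direct one was found in 17 of 27305 RefSeq promoters of this length, or 0.0623%. The distance was taken from HLA-DPB1 itself and both genes are among the 17, so this share is a description and no test.

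RefSeq promoters were matched for 8 of the 10 genes, all but HLA-DRA and CIITA. CCAAT was found in 7 of the 8, against 35.7% of all promoters, and CCAATC, which contains it, in 5, against 15.7%. GCAAC was in 2 (33.7% of all promoters) and TGACG in 4 (25%). HLA-DPB1, HLA-DMA and HLA-DRB1, which were called, and HLA-DQB1 and HLA-DMB, which were not, all held CCAATC. HLA-DPA1, called at 48 and 72 h, was the 1 matched gene without CCAAT and held TGACG in reverse at −57. Its annotated start lies inside HLA-DPB1, so its window is sequence within that gene. These are matches of letters, not measured sites.

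CD74, the invariant chain, read −0.14, −0.12 and 0.08 at 72 h, with a fit of −0.04 and a 95% interval of −0.13 to 0.05. CIITA read 0.10, 0.07 and −0.18 at 72 h, with a fit of −0.02 and an interval of −0.11 to 0.07. Neither was called at any of the 5 times, nor was any of the 4 CIITA probes alone. Over the 6 genes not called at 72 h, the 95% intervals lay between −0.15 and 0.17, or 0.904-fold to 1.12-fold. At 48 h the intervals of the 7 genes not called lay between −0.17 and 0.20.

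**Figure D2:**
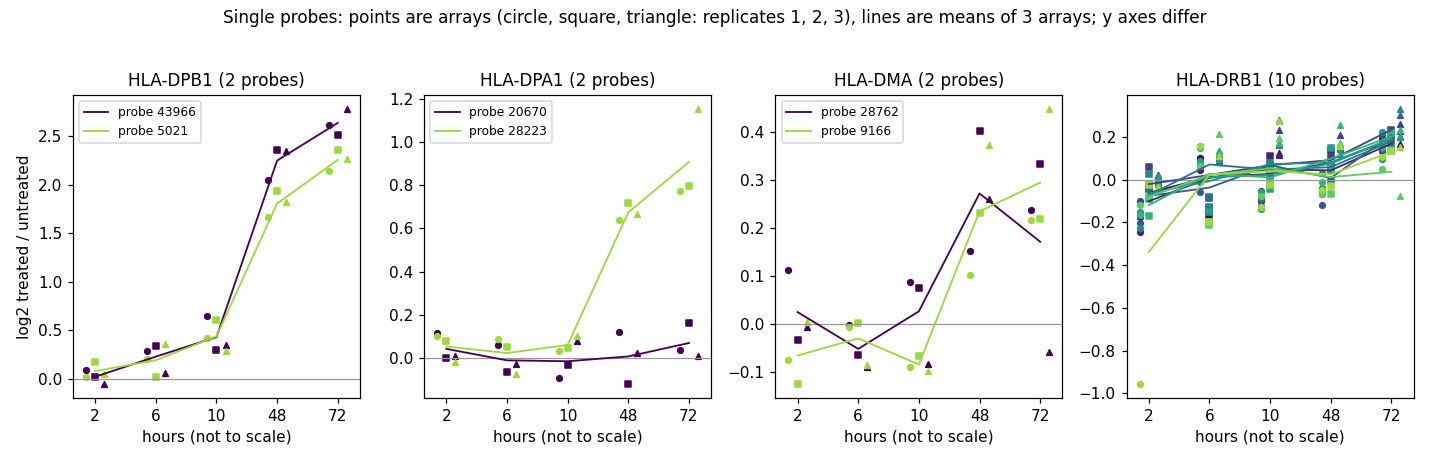
Log2 ratio of treated over untreated RNA (y axes, which differ) at each time (x axis, not to scale) for the single probes of the 4 genes called at 72 h; points are arrays and lines are means of 3 arrays. Both HLA-DPB1 probes reached over 2 at 72 h, whereas 1 of the 2 HLA-DPA1 probes rose and the other had a mean near 0.07.

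The late times (48 and 72 h, averaged) were set against the early ones (2, 6 and 10 h, averaged). In this contrast 3 of the 10 members were called higher, against 14.9% of all genes: HLA-DPB1 by 2.01 ± 0.05 (limma adjusted p = 2.92e-10), HLA-DPA1 by 0.39 ± 0.04 (limma adjusted p = 1.91e-05) and HLA-DMA by 0.27 ± 0.04 (limma adjusted p = 0.000305). HLA-DRB1 differed by 0.13 (limma adjusted p = 0.0727). An F test over the later times against 2 h called the same 3 genes, at adjusted p = 9.01e-09 for HLA-DPB1, 0.000263 for HLA-DPA1 and 0.00446 for HLA-DMA, and 23.3% of all genes. These contrasts share arrays with the tests at single times.

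Of the 8 further class II chains measured, 2 were called higher at 72 h, against 22.1% of all genes. They were HLA-DRB5 at 0.16 ± 0.04 and the pseudogene HLA-DPB2 at 0.15 ± 0.04. At 48 h these were called at 0.11 and 0.13, and the pseudogene HLA-DRB6 was called lower at −0.14. HLA-DOA and HLA-DOB, whose dimer inhibits HLA-DM in B cells, were not called, at 0.05 and −0.04 at 72 h. Class II chains are near-identical in long stretches, so a probe for one DRB or DP gene may also bind its relatives, and the small ratios of HLA-DRB1, HLA-DRB5 and HLA-DPB2 are uncertain in that respect. A probe annotated to several DRB genes, which was left out, ranged from −0.12 to 0.14 over the 15 arrays.

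The members lie together on chromosome 6 apart from CD74 and CIITA. In the RefSeq order from HLA-DRA to HLA-DPB2 there are 36 genes, of which 21 were measured. Of these, 10 were called higher at 72 h, against 22.1% of all genes, and 4 of the 10 are members counted above. The large ratios in that stretch were those of HLA-DPB1 and of TAP1, PSMB8 and PSMB9, which encode the peptide transporter and immunoproteasome subunits of the class I route. PSMB9 read 0.39, 0.06 and 0.56 at 10 h and 1.64, 1.86 and 2.20 at 72 h, with fits of 0.38 ± 0.08 and 1.95 ± 0.08. TAP1 was already at 1.91 ± 0.16 at 10 h and was at 1.96 ± 0.16 at 72 h. BRD2, a bromodomain protein gene between HLA-DMA and HLA-DOA, was called lower at all 5 times, from −0.60 at 2 h to −0.23 at 72 h. HLA-DPA1 and HLA-DPB1 are neighbours whose annotations overlap in RefSeq.

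**Figure D3:**
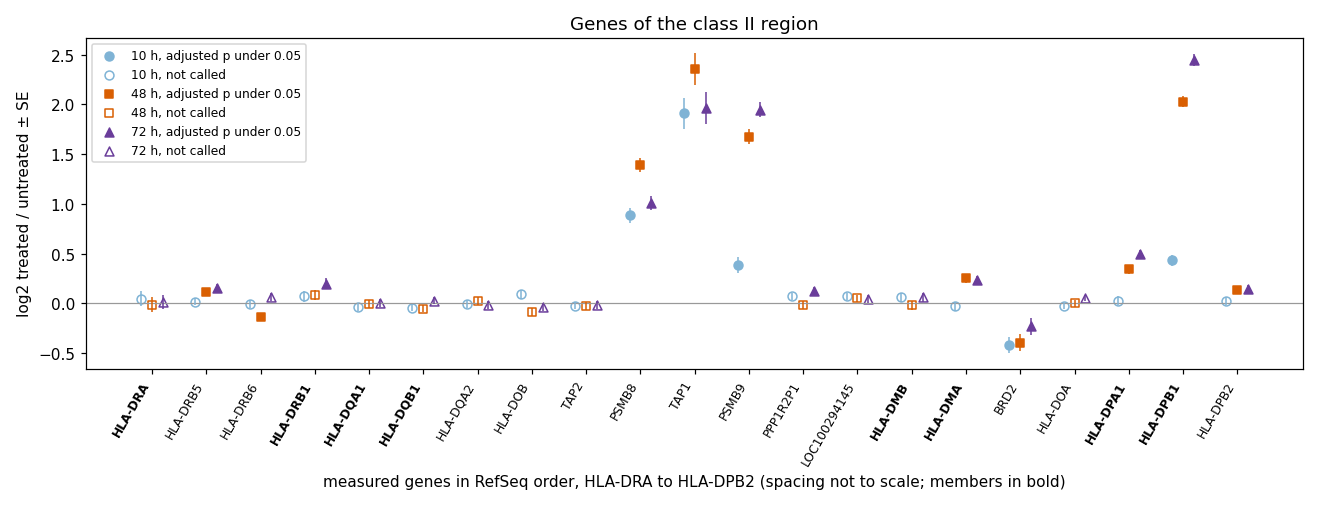
Fitted log2 ratio ± SE of treated over untreated RNA (y axis) at 10, 48 and 72 h for the 21 measured genes from HLA-DRA to HLA-DPB2 in RefSeq order (x axis, spacing not to scale); filled symbols have an adjusted p under 0.05. HLA-DPB1 at 2.45 and its neighbour HLA-DPA1 at 0.49 stand above the other class II genes at 72 h, and TAP1, PSMB8 and PSMB9 are high as well.

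Among 7 measured factors of the class II promoter complex, NFYA and NFYC, subunits of NF-Y, fell. NFYA read −0.76, −0.67 and −0.62 at 2 h, where it was called at −0.68 ± 0.06. It was called lower at 6, 10 and 48 h too (−0.52, −0.44 and −0.32), and stood at −0.07 at 72 h, not called. NFYC was called at −0.31 at 6 h, −0.25 at 10 h and −0.20 at 48 h. RFXAP was called higher at 2 h (0.43 ± 0.10) and 6 h (0.37 ± 0.10) and RFXANK at 72 h (0.26 ± 0.08), while RFX5, the other RFX subunit, was not called (0.01 at 72 h). Thus 0 of 7 were called higher at 48 h, with 2 lower, and 1 higher and 0 lower at 72 h. Of all genes, 23.3% were called higher and 14.6% lower at 48 h, and 22.1% and 13.6% at 72 h.

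Of 10 cofactors recruited with CIITA, 3 were called higher and 2 lower at 72 h, near the 22.1% and 13.6% of all genes. HDAC1, a histone deacetylase, stood at 0.41 ± 0.07 and CDK9, the elongation kinase, at 0.28 ± 0.05. CREBBP, a histone acetyltransferase, fell to −0.41 ± 0.10, and SMARCA4, the remodelling ATPase, to −0.28 ± 0.08.

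Of 10 genes that carry the interferon gamma signal to CIITA, 5 were called higher and 1 lower at 48 h, and 1 higher and 1 lower at 72 h. The shares of all genes were 23.3% higher and 14.6% lower at 48 h, and 22.1% and 13.6% at 72 h. IFNGR1, a receptor chain, was called at 0.63 at 2 h, 0.70 at 6 h, 0.59 at 10 h and 0.57 at 48 h. It was not called at 72 h. SOCS1, an inhibitor of the signal, was called lower at 2 h (−0.59 ± 0.15) and higher at 48 h (0.74 ± 0.15), the largest ratio of the list at that time, and was at 0.05 at 72 h, not called. JAK2, the receptor kinase, was called lower at 2 h (−0.28), 6 h (−0.34), 10 h (−0.38) and 72 h (−0.50 ± 0.07). SOCS3, another inhibitor, was called higher at 6 h (0.49), 10 h (0.53), 48 h (0.35) and 72 h (0.27 ± 0.05). IRF1, an interferon-induced factor that acts on CIITA, was not called at any time (0.07 at 72 h). Of 10 lineage regulators of CIITA, PRDM1, its repressor in plasma cells, was at 0.26 ± 0.05 at 72 h and TCF3 at −0.27 ± 0.05, while SPI1 (0.05) and PAX5 (0.02) were not called.

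The list for proteolysis of antigen and CD74 holds cathepsins and other proteases, the thiol reductase IFI30 and the cathepsin inhibitors CST3 and CSTB. Of 13 genes measured, 6 were called higher at 6 h, 7 at 10 h and 8 at each later time, against the shares of all genes given above. The protease SPPL2A was called lower at 10 h (−0.20), and no other gene of the list was called lower at any time. The list's median at 72 h was 0.23, beside 0.013 for all genes. CTSV, cathepsin V, read 2.80, 2.66 and 2.78 at 48 h and 2.49, 1.83 and 1.79 at 72 h. Its fit was 1.44 ± 0.13 at 6 h, 2.01 ± 0.13 at 10 h, 2.75 ± 0.13 at 48 h and 2.04 ± 0.13 at 72 h. CTSF, which trims CD74 in mouse macrophages, was at 0.98 ± 0.08 at 72 h and CTSB at 0.98 ± 0.10. IFI30 was at 0.64 ± 0.09. CSTB was called at 6 h (0.56 ± 0.07) and 10 h (0.58 ± 0.07) and stood at 0.09 at 48 h and 0.15 at 72 h, not called. CTSS, the cathepsin that trims CD74 in B cells and dendritic cells, was called at 48 h (0.32 ± 0.09) and was at −0.02 at 72 h. CTSV and CTSF were called from 6 h, a time at which HLA-DPB1 was called at 0.21 and HLA-DPA1 and HLA-DMA were at 0.01 and −0.04, not called.

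Of 11 genes for the routing and surface turnover of class II, 5 were called higher and 2 lower at 72 h. The shares of all genes were 22.1% and 13.6%. CD82 and CD63, tetraspanins of the class II compartment, were at 1.11 ± 0.07 and 0.61 ± 0.10. RILP, an effector of late endosome transport, was at −0.30 ± 0.06.

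The class I genes give the nearest comparison. Of 10 measured, 7 were called higher at 72 h, with a median of 1.70, and 0 of 10 lower by limma. Of all genes, 22.1% were called higher at that time and 13.6% lower. HLA-B stood at 2.67 ± 0.12 and HLA-C at 2.73 ± 0.15 at 72 h, beside 2.45 ± 0.06 for HLA-DPB1. At 10 h they had reached 49.4% and 62.9% of their 72 h log2 ratio, against 17.6% for HLA-DPB1. The difference in timing between these genes was not tested.

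**Figure D4:**
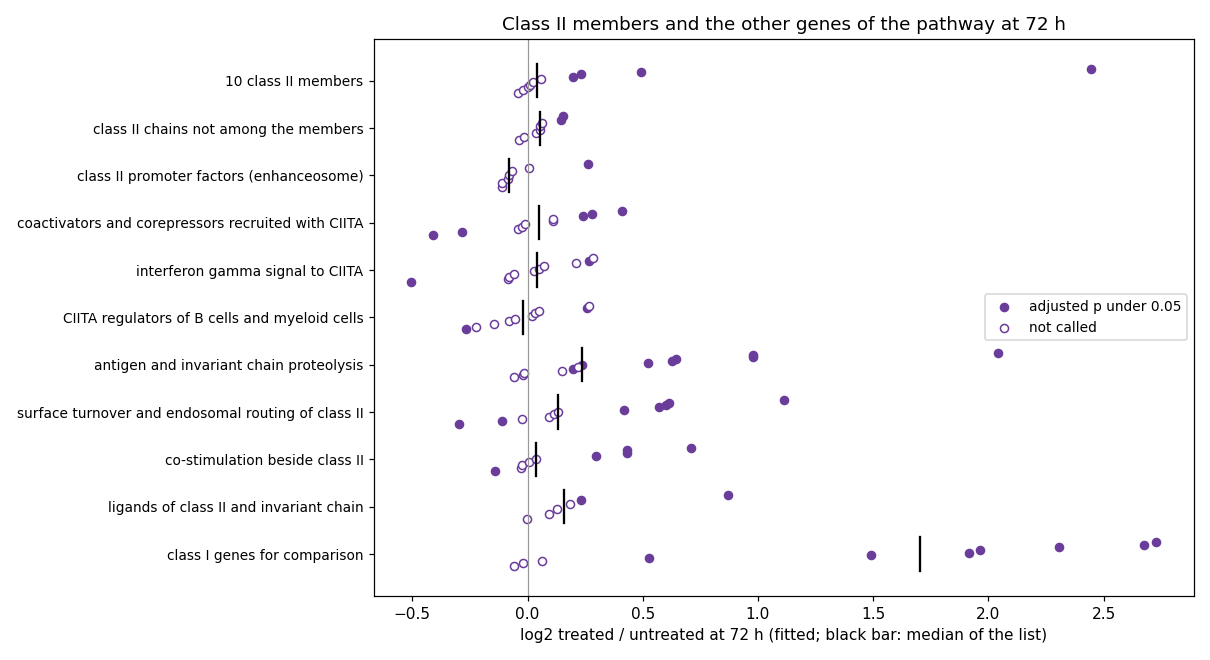
Fitted log2 ratio of treated over untreated RNA at 72 h (x axis) for the 10 members and for each list of pathway genes (y axis); filled points have an adjusted p under 0.05, and black bars are medians. The member median was 0.04 with HLA-DPB1 alone above 0.5, and the class I median was 1.70.

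Markers of cells that carry class II, and of the line itself, were read in the same arrays, as ratios only, so that no summed level could be given. For the counts below, the shares of all genes were 23.3% higher and 14.6% lower at 48 h, and 22.1% and 13.6% at 72 h. Of 9 B cell markers 1 was called higher and 1 lower at 72 h, and MS4A1 (0.01) and CD79A (0.16) were not called. Of 8 monocyte and macrophage markers 3 were called higher, among them LYZ at 1.76 ± 0.08 and ITGAM at 0.82 ± 0.11, and CD14 was at −0.01 and not called. Of 8 dendritic cell markers 4 were called higher, with BATF3 at 1.71 ± 0.18 and CCR7 at 2.18 ± 0.12. Their times of rise differed. LYZ was at 0.15 at 10 h and 1.69 at 48 h, the interval of the main rise of HLA-DPB1, and ITGAM was first called at 48 h. BATF3 was already called at 6 h (1.54) and 10 h (1.94), as was LAMP3 (0.66 and 1.06), and CCR7 was called at 6 h (0.51), not at 10 h (0.13) and again at 48 h (1.21). FLT3 was called lower at 10 h (−0.17). The medians of the dendritic and monocyte lists were −0.04 and 0.03 at 10 h and 0.22 and 0.14 at 72 h. Of 7 erythroid and K562 identity markers 1 was called higher and 3 lower at 48 h, and 1 higher and 2 lower at 72 h. KLF1, an erythroid transcription factor, was called lower at every time (−0.84 at 48 h), and TFRC, the transferrin receptor, was lower at 10 h (−0.71) and higher at 72 h (0.62). The part of these changes in the class II ratios was not tested, and in bulk RNA a change in the number of cells of a kind and in RNA per cell cannot be told apart.

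For each member called at 2 or more times, the nearest genes over the 15 arrays were found by the root mean square difference of log2 ratio. Members and loci with LOC or C-orf names were left out of the search, and HLA-DRB1, called at 1 time, was not searched. For HLA-DPB1 they were PAGE4 at 0.175, LOXL1 at 0.235 and SCG3 at 0.248. PAGE4 stood at 0.24 at 10 h, 2.03 at 48 h and 2.19 at 72 h. For HLA-DPA1 they were ATP8A2 at 0.0792, ABCB1 at 0.0797 and DPPA2 at 0.0800, and for HLA-DMA SH3D19 at 0.0534, RUNX1 at 0.0654 and ERBB4 at 0.0671. This is a description of 15 arrays in which times repeat.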

How the data were processed

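Values came from the table deposited by the authors, log ratios of treated over untreated RNA taken as log2, for 45220 probes on 15 arrays. Per the submitters' processing notes they were made with limma, with no version named; for background correction and normalization, the method is not given in the sources used here. Probes were assigned to genes by the platform annotation (31332 had 1 symbol, 93 had several, 13795 had none) and averaged per gene, giving 18334 genes. Replicate 3, with exchanged dyes, was used as deposited; at 2 h it correlated with the other replicates' mean at −0.0895 over all probes and 0.535 over genes, the lowest of the 5 times on both scales.

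Fits used R 4.3.3 and limma 3.58.1 (lmFit, eBayes). The model held a mean for each of 5 times and a dye term, with 9 residual degrees of freedom and Benjamini-Hochberg adjustment. The script was tested on simulated data. Replicate numbers mark a shared thawing, per the labels' protocols, and pair arrays across times; residual correlations of same-numbered arrays averaged 0.183, 0.153 and 0.525 without the dye term, and −0.0573, −0.0526 and −0.243 with it. A thawing block, array weights, other scalings, other probe summaries, a turned sign for 2 h replicate 3, and single arrays or replicates left out were the 27 alternatives.

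The members and the gene lists were chosen with earlier results of these data known. Pathway genes are named if among the 4 with the largest ratios of their list at a time, called with 1 sign on all 3 arrays, or, in lists of under 12, as uncalled values. Marker and region genes named, CTSS, SPPL2A, CST3, CD80 and the motif pair were picked after their values were seen. Of 101 pathway genes 93 were measured. Contrasts of neighbouring times and single-probe fits were added after seeing the data.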

Additional observations from a re-analysis of the deposited data

Results flagged for a closer look

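The difference between the late times (48 and 72 h) and the early times (2, 6 and 10 h) was itself tested, and 3 members passed, with 14.9% of all genes called higher in that contrast. HLA-DPB1 was higher late by 2.01 on the log2 scale, HLA-DPA1 by 0.39 and HLA-DMA by 0.27, each with all 6 late arrays above all 9 early ones. The value of HLA-DPA1 rests on 1 of its 2 probes. Groups of 3 arrays are too small for a test of single outlying arrays.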

How the results depend on the processing

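The calls of HLA-DPB1 at 10, 48 and 72 h, and of HLA-DPA1 and HLA-DMA at 48 and 72 h, were kept in 27 of 27 alternatives. With 2 probes per gene the median equals the mean, and the probe of largest ratios was picked from these same arrays. Neither alternative is thus a real check of these calls. In the separate fit over probes, 1 HLA-DPA1 probe was not called at 48 h (0.01) or 72 h (0.07), nor 1 HLA-DMA probe at 72 h (0.15). Over the 27 alternatives HLA-DPB1 lay between 1.72 and 2.25 at 48 h and between 2.18 and 2.63 at 72 h. HLA-DPA1 at 72 h ran from 0.43 to 0.91, the highest with the probe of largest ratios. The 1 member called higher at 6 h became 0 with arrays scaled (HLA-DPB1 adjusted p = 0.284, limma) and with that probe choice, and lay between 0 and 1 as single arrays or replicates were left out; without replicate 2, without replicate 3 and without 6 h replicate 1 or 3, HLA-DPB1 was not called there. HLA-DRA at 48 h turned from −0.01 to 0.23 without replicate 3 and ranged from −0.10 to 0.23 over the alternatives that left out arrays. HLA-DRB1 at 72 h was called in 20 of 27. With the thawing as a replicate block, fixed or random, the members called higher were 0, 1, 1, 3 and 4 at 2, 6, 10, 48 and 72 h, as without it, and the block changed no other call. The cause of these shifts was not tested. Without intensities, low signal cannot be set apart from no change.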

Other observations

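Partners of class II at the cell surface were also measured. Of 9 co-stimulation and adhesion genes, 4 were called higher and 1 lower at 72 h (limma), against 22.1% and 13.6% of all genes. CD83, a maturation marker of dendritic cells that stabilises surface class II, read 0.61, 0.67 and 0.82 at 72 h and was called at every time, at 0.33 ± 0.05 at 2 h and 0.71 ± 0.05 at 72 h. CD40, the receptor for T cell help, stood at 0.13 at 10 h, 0.24 at 48 h and 0.43 ± 0.04 at 72 h. CD80 was lower at 72 h (−0.14 ± 0.05) and CD86 was not called (0.04). CD58 was called at 0.43 at 72 h with 0.55, 0.97 and 0.08 on the 3 arrays, where replicate 3 stood apart.

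Of 6 ligands and partners of class II and of CD74, 2 were called higher at 72 h, against 22.1% of all genes. CD44, which signals with surface CD74, read 0.98, 1.16 and 0.98 at 48 h, with fits of 1.03 ± 0.06 there and 0.87 ± 0.06 at 72 h. CXCR4 was at 0.23 ± 0.07 at 72 h.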
